A study of Arabidopsis thaliana with 18 samples.

Results

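The 3 arrays of the mutant rao1-1 sprayed with water were compared with the 3 arrays of the wild type Col-Luc sprayed with water. These are 6 of the 18 arrays of the series, chosen by genotype and treatment in the sample labels. The comparison asked which transcripts differed in the mutant without inhibitor, in seedlings sprayed with water. All 22746 probe sets that are not control probe sets were tested, on log2 of the deposited intensities. Every group consisted of Arabidopsis thaliana seedlings aged 14 days. They were stratified for 48 h at 4 °C and grown on Gamborg B5 medium with 3% sucrose, at 22 °C and with 16 h of light per day. Col-Luc mock and rao1-1 mock were sprayed with deionised water and collected as whole green tissue after 3 h. The Col-Luc antimycin A and rao1-1 antimycin A groups, used for a second look at the same genotypes, were sprayed with 50 µM antimycin A, an inhibitor of respiratory complex III, and collected after the same 3 h. The rao1-2 mock group is a second mutant sprayed with water. Each group held 3 arrays. The mutants came from forward genetic screens per the series text, and any other changes that their genomes carry were not analysed here. With whole tissue, fewer cells of a type and less RNA per cell cannot be told apart.

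The title of the series names CDKE;1, a cyclin-dependent kinase of plants that corresponds to the CDK8 subunit of the mediator complex. Mediator links transcription factors to RNA polymerase II, and its kinase module can attach to it and restrain or help transcription of particular genes. Mitochondrial retrograde signalling carries information on the state of mitochondria to the nucleus. The rao mutants were named as regulators of alternative oxidase 1a, a terminal oxidase that plants make when the cytochrome pathway is blocked. CDKE1 and AOX1A had no named probe set in the annotation used, and their transcripts were not analysed here, so the labels could not be checked on the mutated gene.

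The 6 arrays were close in overall level, but the median of every rao1-1 array was below that of every Col-Luc array. Median intensities were 89.1 to 91.8 in Col-Luc and 85.5 to 88.6 in rao1-1, and 61.84% to 62.16% of probe sets lay above a background limit of 18.9 (4.24 on the log2 scale). Of the 64 control probe sets, 4 were called lower in rao1-1, all for bacterial transcripts added to check hybridisation. The difference of BioC-3 was -0.61 ± 0.06 on the log2 scale (SE, limma's adjusted p = 5.02e-06 over the 64), and under antimycin A it was -0.04 (adjusted p = 0.833). The 25S ribosomal RNA probe set differed by 0.15 ± 0.08 (adjusted p = 0.31). Log2 ratios of 3′ to 5′ probe sets, a sign of RNA quality, were 1.88 ± 0.12 in Col-Luc and 1.97 ± 0.02 in rao1-1 for actin, 0.36 ± 0.13 and 0.35 ± 0.02 for GAPDH, and 0.39 ± 0.04 and 0.28 ± 0.09 for ubiquitin (SD, n = 3). The part of these controls in the results below was not tested. Of 7 named root marker genes, PYK10 alone was above the limit, and the summed intensity of the 7 was 686 to 1019 in Col-Luc and 778.5 to 1492 in rao1-1. All 10 named nuclear photosynthesis genes were above the limit, with sums of 153900 to 180700 and 141000 to 159000.

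Without inhibitor, 918 probe sets differed between rao1-1 and Col-Luc, 4.04% of those tested (limma, Benjamini-Hochberg adjusted p under 0.05). Of these, 419 (1.84%) were higher and 499 (2.19%) were lower in the mutant. Most differences were modest: the median was 1.9-fold for the higher and 1.68-fold for the lower, and 92 higher and 178 lower calls were under 1.5-fold. Differences of at least 2-fold were found for 192 higher and 170 lower probe sets, and of at least 4-fold for 57 and 35. The 3 values of rao1-1 lay outside the range of the 3 Col-Luc values for 418 of the higher and 499 of the lower calls. Of all probe sets tested, 9.95% had no overlap with rao1-1 higher and 14.8% with rao1-1 lower (24.8% together). The higher calls represented 197 named genes and the lower calls 273.

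**Figure D1:**
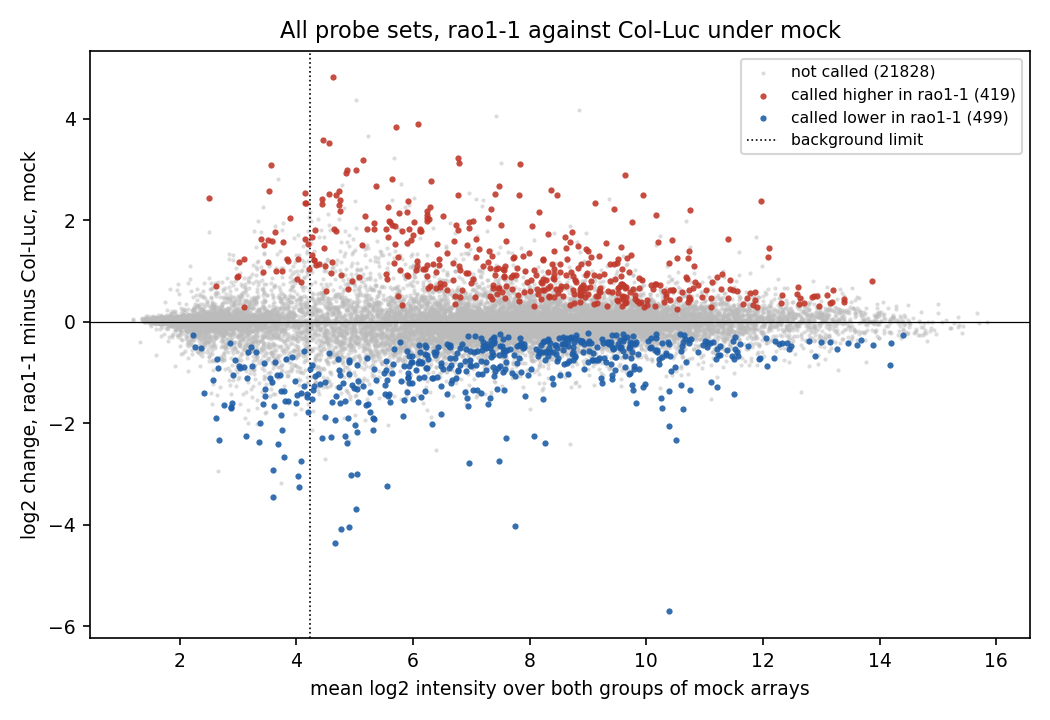
Each point is 1 of 22746 probe sets, with the mean log2 intensity of the 6 mock arrays on the x axis and the log2 change of rao1-1 against Col-Luc on the y axis. The 419 higher calls are red and the 499 lower calls blue, and the dotted line marks the background limit of 4.24.

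The number of calls differed when 1 array was left out and with the scale. Leaving out an array also makes its group smaller, which by itself makes calls harder to reach. The part of group size in the losses of calls given here and below was not tested. Leaving out 1 array gave 383 calls without rao1-1 replicate 2, 492 without Col-Luc replicate 1, 505 without Col-Luc replicate 2, 534 without rao1-1 replicate 1, 562 without rao1-1 replicate 3 and 964 without Col-Luc replicate 3. As deposited, 45.6% of the calls were higher. Centred on array medians, 509 were higher and 336 lower (60.2% higher). With the hybridisation controls as the reference, which were themselves lower on the rao1-1 arrays, all probe sets shifted by a median of 0.18 on the log2 scale, and 4136 were higher and 344 lower (92.3%). The poly(A) controls as the reference gave 244 higher and 481 lower (33.7%). Under these scalings and an added quantile normalization, 236 of the 419 and 268 of the 499 stayed called in their direction each time. By limma, 0 of the 918 were called in the opposite direction under any of them. Changes given below are relative to the deposited scale. With the 6 mock arrays alone, 66 of 115 called genes followed by name lost their call, and such a loss is given below for genes that otherwise kept theirs without any 1 array.

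The named gene with the largest increase was AT5G62210. It read 4.11, 3.77 and 6.6 on the Col-Luc arrays, all under the background limit, and 138, 153 and 106 on the rao1-1 arrays (at least 6.94-fold higher, 4.81 ± 0.47 on the log2 scale, adjusted p = 0.000114). AT4G23680 read 24.6, 58.3 and 3.79 in Col-Luc and 328, 234 and 231 in rao1-1 (14.8-fold, 8.68-fold at the limit, 3.89 ± 0.68, adjusted p = 0.00694). Here and below, a fold at the limit is one with values of the lower group raised to the background limit, given where 1 or 2 of its 3 arrays were under it. Of the Col-Luc arrays, 2 of 3 were above the limit for AT4G23680. Its log2 change was 3.89 with all arrays, 4.75 without Col-Luc replicate 2 and 2.78 without Col-Luc replicate 3. AT4G19430 read 119.9, 135 and 152 against 675, 921 and 869 (6.03-fold, adjusted p = 0.000198). AT1G67760 read 8.9, 8.62 and 12.5 against 57.5, 56.6 and 55.6 (at least 2.99-fold, adjusted p = 1.18e-05), almost without spread in the mutant. AT3G47540 read 84.7, 71.7 and 143 against 441, 617 and 561 (5.6-fold, adjusted p = 0.000379). These 5 genes kept their call without any 1 of the 6 arrays, while that of AT4G23680 was lost with the 6 mock arrays alone.

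Among the 15 largest increases, CHIL (AT5G05270), a chalcone isomerase-like gene of the flavonoid pathway, read 6.63, 9.19 and 8.18 in Col-Luc and 42.4, 49.9 and 30.2 in rao1-1 (at least 2.12-fold, adjusted p = 0.00137). TET9 (AT4G30430), a tetraspanin, which is a small membrane-spanning scaffold protein, read 8.95, 2.82 and 2.64 against 50.1, 13.4 and 60.1 (at least 1.81-fold, adjusted p = 0.0049). Both calls held without any 1 array, but that of TET9 was lost with the 6 mock arrays alone. Of the rao1-1 arrays, 2 of 3 were above the limit for TET9, and its log2 change was 3.08 with all arrays, 3.76 without rao1-1 replicate 2. TET9 was the single call among 15 named tetraspanins, of which 8 were above the limit on at least 1 array. Of all probe sets, 1.84% were called higher. SAL2 (AT5G64000), a relative of the phosphatase SAL1, read 9.28, 8.1 and 15 against 38.6, 115 and 126 (at least 4.37-fold, adjusted p = 0.0242), and its call was lost without Col-Luc replicate 1 or 2 or rao1-1 replicate 2 or 3 (adjusted p up to 0.101).

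The other increases of this group were those of AT1G43910 (8.57-fold), AT3G28220 (6.98-fold, 4.59-fold at the limit), AT3G44970 (6.78-fold), AT1G70270 (6.37-fold, 5-fold at the limit), AT5G52760 (5.61-fold), AT4G12500 (5.08-fold) and AT3G57010 (at least 3.12-fold). AT5G52760 was bright in both groups, with 422, 251 and 687 in Col-Luc and 2371, 3005 and 1803 in rao1-1. AT3G44970 read 32.9, 30.2 and 28.4 against 213, 246 and 168, with narrow groups. For AT3G28220 and AT1G70270, 2 of 3 Col-Luc arrays were above the limit. The call of AT1G43910 was lost without rao1-1 replicate 2 (adjusted p = 0.0505), that of AT3G28220 was lost without rao1-1 replicate 1 or 3 (adjusted p up to 0.0933), and that of AT4G12500 was lost without any 1 array but Col-Luc replicate 3 (adjusted p up to 0.178) and with the poly(A) controls as the reference. The log2 change of AT1G43910 was 3.1 with all arrays, 2.33 without Col-Luc replicate 1 and 3.72 without Col-Luc replicate 3, that of AT3G28220 2.80 with all arrays, 1.90 without Col-Luc replicate 3, and that of AT4G12500 2.34 with all arrays, 1.62 without Col-Luc replicate 1. The calls of AT3G44970, AT1G70270, AT5G52760 and AT3G57010 held without any 1 array, those of AT5G52760 and AT3G57010 being lost with the 6 mock arrays alone.

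Among named genes with lower transcript in rao1-1, AT2G33850 read 989, 676 and 983 on the Col-Luc arrays and 99.9, 37.3 and 40.5 on the rao1-1 arrays (16.3-fold, -4.03 ± 0.34 on the log2 scale, adjusted p = 3.84e-05). AT5G52070 read 119, 149.6 and 89 against 6.34, 14.1 and 8.23 (at least 6.17-fold, adjusted p = 0.000112). Wild type was well above the limit in both genes, and AT5G52070 was below it in the mutant. AT5G53710 read 41.1, 63.9 and 51.4 against 5.47, 5.79 and 4.8 (at least 2.71-fold, adjusted p = 6.83e-07). AT1G56710 read 37.8, 37.9 and 29.3 against 5.22, 6.39 and 4.89 (at least 1.84-fold, adjusted p = 2.28e-07). All 3 mutant arrays of both were under the limit. AT1G64360 and AT1G64370, neighbours in the gene order of the reference, were both lower. The former read 413, 439.9 and 430.1 against 116, 65.9 and 86.1 (4.92-fold, adjusted p = 0.000199), and the latter 3150.1, 2488 and 2661 against 752, 689.6 and 550.4 (4.18-fold, adjusted p = 0.0042).

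AT4G28140 (115, 104 and 66 against 13.6, 23.1 and 5, 7.96-fold, 4.58-fold at the limit) and AT1G20070 (368, 397 and 238 against 79.8, 39.7 and 33.2, 6.91-fold) kept their calls without any 1 array, as did the 6 genes before them. Of the rao1-1 arrays, 1 of 3 was above the limit for AT4G28140. Its log2 change was -2.99 with all arrays, -2.38 without rao1-1 replicate 3, and its call was lost with the 6 mock arrays alone. The 7 others among the 15 largest decreases did not. SNZ (AT2G39250), SCHNARCHZAPFEN, an AP2-type repressor of flowering, read 41, 57.1 and 47.6 against 17.396, 7.61 and 7.27 (at least 2.55-fold, adjusted p = 0.024), and its call was lost without Col-Luc replicate 1 or 2 or rao1-1 replicate 2 or 3 (adjusted p up to 0.101). AT3G53980 read 133, 116 and 92 against 16.2, 4.24 and 4.24 (at least 5.95-fold, adjusted p = 0.0257), and its call was lost without Col-Luc replicate 1 or 2 or rao1-1 replicate 2 or 3 (adjusted p up to 0.107). Its log2 change was -4.08 with all arrays, -4.73 without rao1-1 replicate 1. AT3G17640 was 5.23-fold, 3.4-fold at the limit lower, AT1G51090 was 9.37-fold, 6.13-fold at the limit, AT2G05160 was at least 1.5-fold, AT5G39030 was 4.78-fold, 3.25-fold at the limit, and AT5G05250 was 4.74-fold. In each of AT3G17640, AT1G51090 and AT5G39030, 1 of 3 rao1-1 arrays was above the limit. The log2 change of AT1G51090 was -3.23 with all arrays, -3.85 without rao1-1 replicate 3. The call of AT3G17640 was lost without Col-Luc replicate 1 or 2 or rao1-1 replicate 2 or 3 (adjusted p up to 0.101), that of AT1G51090 lost without Col-Luc replicate 1 or 2 or rao1-1 replicate 1 or 2 (adjusted p up to 0.0654), and that of AT2G05160 lost without Col-Luc replicate 1 or 2 or rao1-1 replicate 1 or 2 (adjusted p up to 0.121). The call of AT5G39030 was lost without rao1-1 replicate 2 (adjusted p = 0.0606), and that of AT5G05250 lost without Col-Luc replicate 1 or rao1-1 replicate 2 (adjusted p up to 0.0549).

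**Figure D2:**
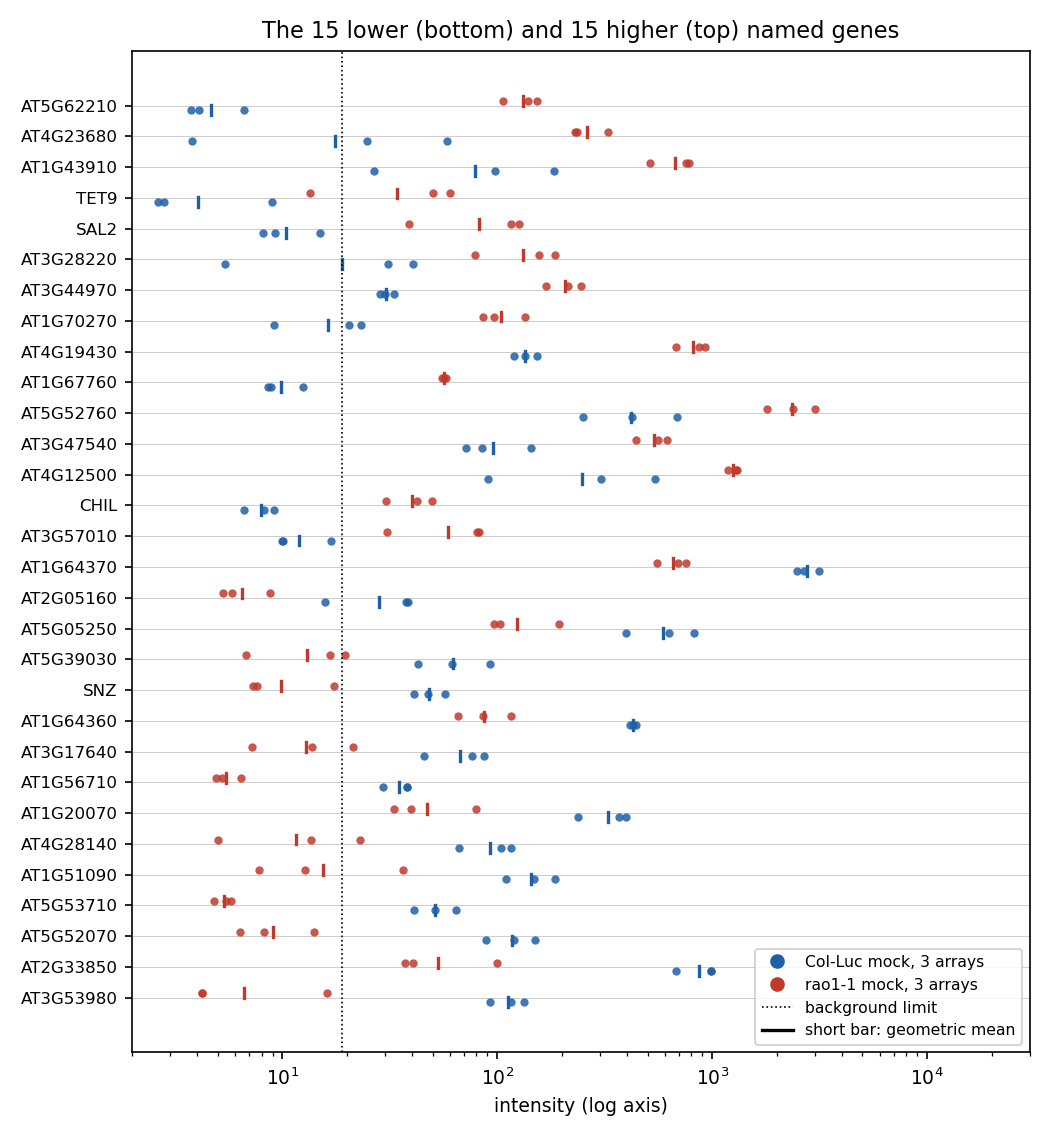
Intensity on a log axis of the 15 named genes with the largest higher and the 15 with the largest lower change, with 1 point for each of 3 Col-Luc mock arrays (blue) and 3 rao1-1 mock arrays (red), short bars at geometric means and a dotted line at the background limit of 18.9. The groups of each gene do not overlap, which the choice of these genes required.

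The largest change of all was that of 252678_s_at, a probe set without a gene name in the annotation used, picked after its values were seen. It read 8129, 10054 and 10924 on the Col-Luc arrays and 152, 329 and 127 on the rao1-1 arrays (51.99-fold lower, -5.70 ± 0.38, adjusted p = 3.09e-06). Its call held without any 1 array (adjusted p up to 5.39e-05). Under antimycin A it read 7134, 10370 and 9194 in Col-Luc and 115, 307 and 121 in rao1-1. In rao1-2 mock it read 8216, 12750 and 11627, near the wild-type values.

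Of 1557 named genes with a symbol of their own, 36 were higher and 44 lower in rao1-1, and 9 and 10 of these kept their call without any 1 of the 6 arrays. They are described by role, with families grouped after the values were seen. Each count of called members below is to be set beside the 1.84% of all probe sets called higher and 2.19% called lower. TUB1 (AT1G75780), a beta-tubulin of microtubules, read 271, 299 and 292 in Col-Luc and 526, 561 and 545 in rao1-1 (1.89-fold, adjusted p = 0.00762). TCP15 (AT1G69690), a transcription factor of a family that acts on cell proliferation, read 195, 198 and 207 against 364, 379 and 396 (1.9-fold, adjusted p = 0.00215). GID1C (AT5G27320), a receptor of the growth hormone gibberellin, read 40.3, 32.8 and 30.0 against 72.8, 79.8 and 74.8 (2.22-fold, adjusted p = 0.00519). These 3 genes kept their call without any 1 array. GID1B (AT3G63010), another receptor, read 14.2, 43.2 and 44.9 against 80.7, 123 and 67.8 (2.9-fold, 2.64-fold at the limit, adjusted p = 0.0461), and its call was lost without any 1 array but Col-Luc replicate 3 (adjusted p up to 0.192) and with the poly(A) controls as the reference. For GID1B, 2 of 3 Col-Luc arrays were above the limit. GID1A, the remaining receptor, was not called (-0.15 ± 0.16, adjusted p = 0.805).

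Of 8 named auxin response genes, 1 had a positive change and 4 an unadjusted p under 0.05, with a median change of -0.28. The shares of all probe sets were 51.2% and 16.7%. On at least 1 array, 5 of the 8 were above the limit. Limma called 1 of the 8, the one with the positive change. It was WES1 (AT4G27260), also GH3.5, which conjugates auxin to amino acids, with 309, 229.6 and 251 against 513, 483 and 541 (1.96-fold higher, adjusted p = 0.0378), and the call was lost whichever 1 of the 6 arrays was left out (adjusted p up to 0.129). YUC2 (AT4G13260), an enzyme of auxin synthesis, read 8.47, 21.1 and 5.82 against 37.9, 31.6 and 25.5 (3.08-fold, 1.59-fold at the limit, adjusted p = 0.0402). Of the Col-Luc arrays, 1 of 3 was above the limit. Its call was lost without any 1 array but Col-Luc replicate 2 (adjusted p up to 0.137), and the other 3 named YUC genes were not called. IAA29, an auxin-inducible repressor, read 29.2, 35.5 and 25.2 against 7.9, 8.03 and 9.42 and did not pass the test (adjusted p = 0.0527). In the cell wall, PMEPCRF (AT5G53370), a pectin methylesterase, read 235, 172 and 229.8 against 478, 555 and 628 (2.62-fold, adjusted p = 0.00894), a call kept without any 1 array. EXPA8, an expansin, read 1496, 988 and 576 against 254, 172 and 132 and did not pass (adjusted p = 0.0586).

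SWEET proteins carry sugars across membranes, and SWEET17 carries fructose across the vacuolar membrane. SWEET17 (AT4G15920) read 768, 802 and 680.1 in Col-Luc and 1504, 1126 and 984 in rao1-1 (1.58-fold, adjusted p = 0.0141), and SFP1 (AT5G27350), a sugar transporter-like gene, 708, 671 and 813 against 1213, 1298 and 1373 (1.78-fold, adjusted p = 0.00592). Both held without any 1 array, but the call of SWEET17 was lost with the 6 mock arrays alone. SWEET4 (AT3G28007) read 49.6, 59.8 and 72 against 98.9, 143 and 114 (1.96-fold, adjusted p = 0.0314), and its call was lost without Col-Luc replicate 1 or 2 or rao1-1 replicate 2 or 3 (adjusted p up to 0.138) and with the poly(A) controls as the reference. SWEET10 was called lower with all 6 arrays under the limit (adjusted p = 0.00101), so no fold is given. The other 11 of 14 named SWEET genes were not called, and 7 of the 14 were above the limit on at least 1 array.

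Of 6 named starch genes 3 were lower and 0 higher by limma, beside 2.19% and 1.84% of all probe sets, a family grouped after the values were seen. The log2 changes of the 6 went both ways, from -0.798 to 0.495, with a median of -0.436. PWD (AT5G26570), phosphoglucan water dikinase, which phosphorylates starch for breakdown, read 2416, 2183 and 1921 against 1326, 1162 and 1250.3 (1.74-fold, adjusted p = 0.0152), and the call was lost without Col-Luc replicate 1 or 2 or rao1-1 replicate 2 (adjusted p up to 0.0692). AT4G24450, which carries the same symbol in the reference, was 1.73-fold lower (adjusted p = 0.0184), a call lost without Col-Luc replicate 2 or rao1-1 replicate 1 or 3 (adjusted p up to 0.0737). DPE1 (AT5G64860), the plastid disproportionating enzyme, read 1096, 1137 and 1053 against 727, 619 and 672 (1.63-fold, adjusted p = 0.0354), a call lost whichever 1 of the 6 arrays was left out (adjusted p up to 0.138) and also when arrays were centred on their medians.

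APA1 (AT1G11910), an aspartic proteinase, read 5892, 6488 and 6609 in Col-Luc and 4503, 4907 and 4787 in rao1-1 (1.34-fold, adjusted p = 0.00936). SCPL49 (AT3G10410), a carboxypeptidase Y, read 1769, 1863 and 1932 against 1267, 1336 and 1382 (1.4-fold, adjusted p = 0.00907). PIP (AT2G14260), proline iminopeptidase, read 1405, 1541 and 1205 against 973, 880.2 and 966 (1.47-fold, adjusted p = 0.00694). These calls held without any 1 array, but those of APA1 and SCPL49 were lost with the hybridisation controls as the reference and that of APA1 also with the poly(A) controls. The call of PIP was lost with the 6 mock arrays alone. GAMMA-VPE (AT4G32940), a vacuolar processing enzyme, was 1.46-fold lower (adjusted p = 0.0468), a call lost without any 1 array but Col-Luc replicate 2 (adjusted p up to 0.166) and when arrays were centred on medians or on either control set, or quantile normalized. Of 29 named serine carboxypeptidase-like genes, 15 were above the limit on at least 1 array. Among the 29, scpl31 (3.9-fold, 3.14-fold at the limit) and scpl48 (1.23-fold) were higher, and scpl20 (2.54-fold) and SCPL49 lower. Of all probe sets, 1.84% were higher and 2.19% lower. For scpl31, 2 of 3 Col-Luc arrays were above the limit, and its log2 change was 1.96 with all arrays, 1.304 without Col-Luc replicate 2. The call of scpl31 was lost without rao1-1 replicate 1 or 2 (adjusted p up to 0.0774), and that of scpl48 was lost without any 1 array but rao1-1 replicate 2 (adjusted p up to 0.126) and with the poly(A) controls.

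Of 11 genes of DNA repair and replication, also grouped after the values were seen, 4 were lower and 1 higher, beside 2.19% and 1.84% of all probe sets. Only 5 of the 11 were above the limit on at least 1 array. As the family was put together with its calls known, these counts are no test of the family. RAD4 (AT5G16630), whose yeast namesake recognises damage in nucleotide excision repair, read 223, 272 and 271 in Col-Luc and 151, 139 and 148 in rao1-1 (1.75-fold, adjusted p = 0.00873), a call kept without any 1 array. APTX (AT5G01310), aprataxin-like, was 1.73-fold lower (adjusted p = 0.048) and its call was lost whichever 1 of the 6 arrays was left out (adjusted p up to 0.17). REV7 (AT1G16590), a subunit of a translesion DNA polymerase, read 16.5, 22.1 and 16.9 against 15.1, 9.34 and 9.42 near or under the limit (called lower, adjusted p = 0.0449), a call lost without any 1 array but rao1-1 replicate 1 (adjusted p up to 0.187). RECQ4A, a DNA helicase, was called lower with all arrays under the limit (adjusted p = 0.0362), a call lost without any 1 array but Col-Luc replicate 3 (adjusted p up to 0.145). ATIM (AT5G52910), TIMELESS, a replication fork protein in other eukaryotes, read 49.1, 37.2 and 44.8 against 70.3, 83.6 and 93.8 (1.89-fold higher, adjusted p = 0.0468), a call lost whichever 1 of the 6 arrays was left out (adjusted p up to 0.163). Of 12 RNA polymerase subunits, NRPA1, the largest subunit of RNA polymerase I, was 1.41-fold higher (adjusted p = 0.0375), a call lost without any 1 array but Col-Luc replicate 2 (adjusted p up to 0.135). NRPB6B was 1.51-fold higher (adjusted p = 0.0118), a call lost without Col-Luc replicate 1 or rao1-1 replicate 1 or 2 (adjusted p up to 0.0606). Centring on array medians also ended the calls of APTX, REV7 and RECQ4A, the hybridisation controls those of APTX and RECQ4A, the poly(A) controls those of APTX, REV7, ATIM, NRPA1 and NRPB6B, and quantile normalization those of APTX and REV7.

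PGL34 (AT3G58010), a plastoglobulin that coats lipid droplets of the plastid, read 487, 509 and 539 in Col-Luc and 367, 357 and 357 in rao1-1 (1.42-fold, adjusted p = 0.00322), and held without any 1 array. CHL (AT3G47860), the chloroplastic lipocalin, was 1.59-fold lower (adjusted p = 0.015), a call lost without Col-Luc replicate 1 or 2 or rao1-1 replicate 2 (adjusted p up to 0.0643). Z-ISO (AT1G10830), a carotenoid isomerase, was 1.34-fold lower (adjusted p = 0.0317), a call lost without Col-Luc replicate 1 or 2 or rao1-1 replicate 1 or 2 (adjusted p up to 0.131). Of 69 named plastid-encoded genes 0 were higher and 2 lower by limma, 20 had an unadjusted p under 0.05, and the median change was -0.04. Of all probe sets, 2.19% were called lower and 16.7% had an unadjusted p under 0.05. psaA, a reaction centre subunit of photosystem I, read 784, 818 and 523 against 419, 346 and 479.5 (adjusted p = 0.042), a call lost without any 1 array but Col-Luc replicate 3 (adjusted p up to 0.179). psbA, the D1 protein of photosystem II, read 12894, 13417 and 12643 against 10133, 8757 and 10322 (1.34-fold, adjusted p = 0.0461), a call lost whichever 1 of the 6 arrays was left out (adjusted p up to 0.197). Centring on array medians or on the hybridisation controls ended the calls of Z-ISO, psaA and psbA as well, and poly(A) controls or quantile normalization that of psbA.

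Among stress and nutrition genes, COR27 (AT5G42900), a cold-regulated gene, read 1529, 1503 and 1203 in Col-Luc and 522, 521 and 611 in rao1-1 (2.55-fold lower, adjusted p = 0.0139), a call lost without Col-Luc replicate 1 or 2 or rao1-1 replicate 2 (adjusted p up to 0.0594). XERICO (AT2G04240), a RING protein that promotes abscisic acid build-up, read 1298, 981 and 1002 against 588, 538 and 626 (1.86-fold, adjusted p = 0.0141), a call lost without Col-Luc replicate 1 or rao1-1 replicate 2 (adjusted p up to 0.0654). PYE (AT3G47640), POPEYE, a transcription factor of the iron deficiency response, read 427, 253 and 249 against 174, 98.5 and 95.4 (2.54-fold, adjusted p = 0.0285), a call lost without Col-Luc replicate 1 or 2 or rao1-1 replicate 2 or 3 (adjusted p up to 0.12). The groups did not overlap in these 3 genes, as in all 499 lower calls and in 14.8% of all probe sets with rao1-1 lower. MSRB5 (AT4G04830) and MSRB9 (AT4G21850), reductases that repair oxidised methionine, were 2.21-fold and 2.19-fold higher (adjusted p = 0.0303 and 0.0158), and the other 2 named MSRB genes were not called. The call of MSRB5 was lost without Col-Luc replicate 1 or 2 or rao1-1 replicate 1 or 2 (adjusted p up to 0.128), and that of MSRB9 lost without Col-Luc replicate 2 or rao1-1 replicate 2 (adjusted p up to 0.079). Prx37 (AT4G08770), a secreted peroxidase, read 103, 70.3 and 118 against 376, 421 and 277 (3.72-fold, adjusted p = 0.023), a call lost without Col-Luc replicate 1 or 2 or rao1-1 replicate 1 or 2 (adjusted p up to 0.0957). UGT88A1 (AT3G16520), a glucosyltransferase, read 1623, 1595 and 1526 against 906, 867 and 892 (1.78-fold lower, adjusted p = 0.00137), and held without any 1 array.

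Lists of pathway genes were set beside the 4.04% of all probe sets that were called. Only listed genes with a named probe set could be read. These were 15 of 22 for mitochondrial dysfunction, 5 of 16 for alternative respiration, 13 of 31 for mediator and 10 of 55 for nuclear photosynthesis. A count of 0 calls says nothing on the other listed genes. Of 15 named mitochondrial dysfunction genes, which respond to inhibitors of respiration, limma called 0 and 1 had an unadjusted p under 0.05, with a median change of 0.08. That gene, AT2G21640, read 25.7, 52.6 and 57.4 in Col-Luc and 102, 187 and 192 in rao1-1 (1.85 ± 0.60, adjusted p = 0.11). AT2G32020 and AT5G09570, other members of the list, were under the background limit in both genotypes. Of 5 alternative NAD(P)H dehydrogenases limma called 0 and 1, NDC1, had an unadjusted p under 0.05 (adjusted p = 0.251).

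Of 13 genes of respiratory complex III and cytochrome c, 11 had positive changes and 6 an unadjusted p under 0.05, with a median of 0.24. Of all probe sets, 51.2% had positive changes and 16.7% an unadjusted p under 0.05, with a median of 0.003. The 1 gene called, CYTC-2 (AT4G10040), a cytochrome c, read 319, 576 and 806 in Col-Luc and 1226, 1576 and 1041 in rao1-1 (2.39-fold, adjusted p = 0.0487). That call was lost without any 1 array but Col-Luc replicate 3 (adjusted p up to 0.191) and with the poly(A) controls as the reference. CYTC-1 read 4610.3, 5666 and 6621 against 7019.5, 8511 and 7526 (adjusted p = 0.103). Its groups did not overlap, as in 9.95% of all probe sets with rao1-1 higher. Of 13 mediator genes limma called 0 and 2 had an unadjusted p under 0.05, with a median of -0.12. MED31 had the smallest p (249, 219 and 169 against 133, 159 and 146, adjusted p = 0.162).

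Of 10 nuclear photosynthesis genes limma called 0 and 3 had an unadjusted p under 0.05, with 1 positive change and a median of -0.17. PSBY, a photosystem II protein, read 16089, 16907 and 13901 against 12830, 11653 and 11825 (adjusted p = 0.103). Of 16 mitochondrion-encoded genes limma called 0 and 4 had an unadjusted p under 0.05, the smallest that of ccb382 (adjusted p = 0.0549). In the flavonoid list of 9, CHIL was higher and AT4G14090 lower with both groups under the limit (adjusted p = 0.0373), a call lost without any 1 array but Col-Luc replicate 3 (adjusted p up to 0.127). Of 12 detoxification genes GSTU26, a glutathione transferase, was called higher (11.6, 8.48 and 8.85 against 17.2, 25.2 and 15.7, adjusted p = 0.0487), a call lost whichever 1 of the 6 arrays was left out (adjusted p up to 0.21). Of 13 expansin and wall-loosening genes EXPA16 was called lower with all arrays under the limit (adjusted p = 0.0135), a call lost without Col-Luc replicate 2 or rao1-1 replicate 2 (adjusted p up to 0.058). Of the 13, 8 had positive changes and 3 an unadjusted p under 0.05, with a median of 0.40. Of all probe sets, 51.2% had positive changes and 16.7% an unadjusted p under 0.05. For the lists of heat shock (7 named of 26 listed), cell cycle (4 of 28), wax and cutin (3 of 33) and seed maturation (1 of 19), limma called 0 and 0 had an unadjusted p under 0.05. The next lists were rapid stress and touch (5 named of 23 listed), jasmonate and ethylene defence (4 of 33), cold and abscisic acid (4 of 26) and glucosinolate (3 of 31). Others were salicylic acid defence (2 of 23), guard cell markers (2 of 8) and the circadian clock (GI alone of 25). In each of these limma called 0 and 1 had an unadjusted p under 0.05. All 4 cold and abscisic acid genes had negative changes (median -0.56), with COR15B at 981, 1682 and 859 against 582, 531 and 435 (adjusted p = 0.0909).

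**Figure D3:**
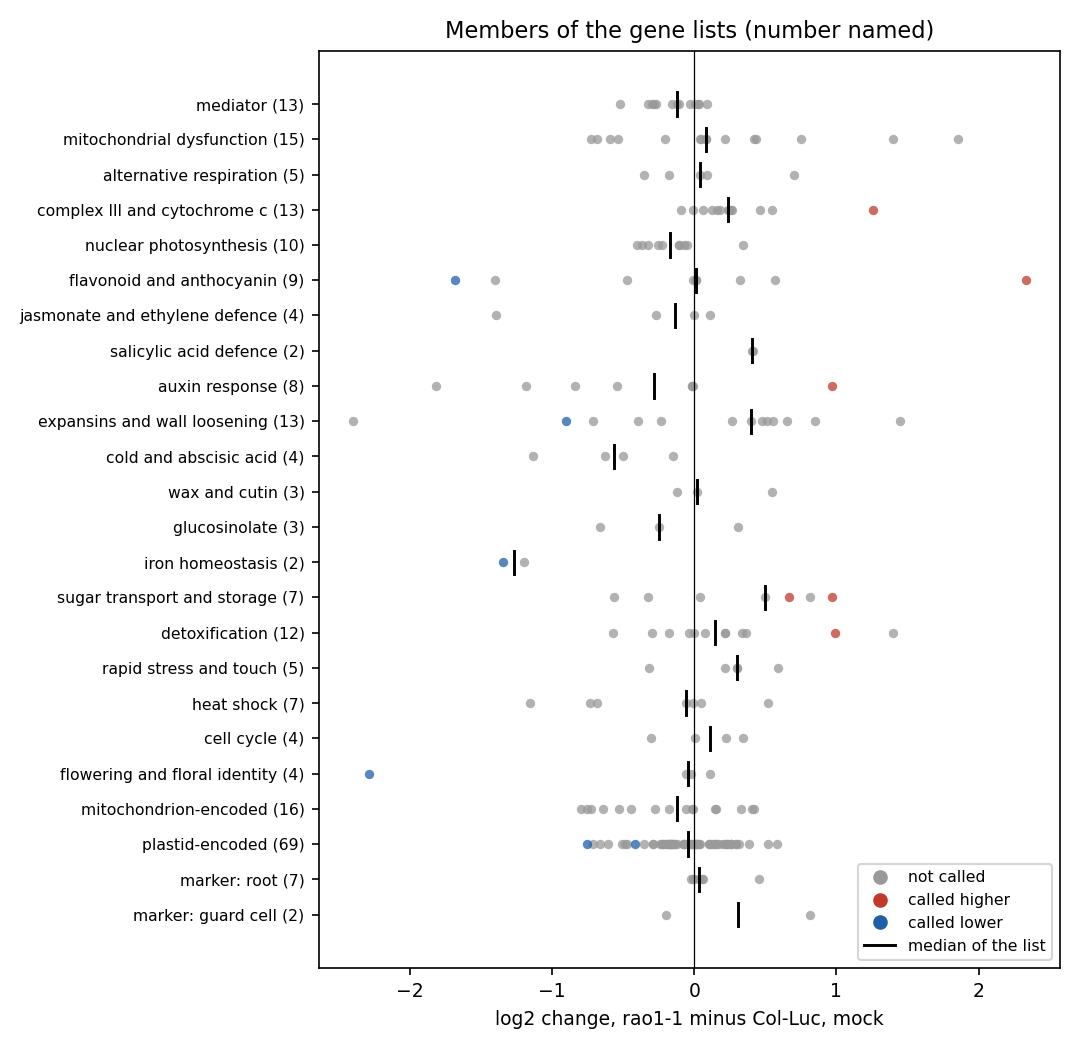
Each point is a member of a gene list with at least 2 named genes, placed by its log2 change in rao1-1 against Col-Luc under mock, with called genes in red (higher) or blue (lower) and a bar at the list's median. Most members were not called. The medians ran from -1.27 for iron homeostasis (2 named) to 0.50 for sugar transport and storage (7 named), with complex III and cytochrome c at 0.24.

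The 6 antimycin A arrays of the same genotypes share no array with the mock comparison. For each probe set, however, limma used the same estimate of spread in both comparisons. A small shared spread favours a call in both, so the calls counted below are not independent. How far this raised the overlap of calls was not tested. Under antimycin A, 403 probe sets (1.77%) were higher and 340 (1.49%) lower in rao1-1, 3.27% in all. Of the 419 that were higher under mock, 100 (23.9%) were also called higher under antimycin A, and these were 24.8% of the higher calls there. Of the 499 that were lower, 84 (16.8%) were also called lower, or 24.7% of the lower calls there. In the opposite direction, 1 and 6 were called. The sign was the same for 84.5% of the higher and 73.7% of the lower set, against 62.7% of all probe sets. Median changes on the log2 scale were 0.34 under antimycin A against 0.92 under mock for the higher set, and -0.14 against -0.75 for the lower set. As the sets were chosen by their change under mock, a smaller change on other arrays is partly built in. The difference between treatments itself passed the test for 84 probe sets (0.369%), 48 with a more positive change under antimycin A (0.211%) and 36 with a more negative one (0.158%). Of these, 17 were called higher and 33 lower under mock.

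Genes that differed in both treatments included several of the largest. Under antimycin A, AT5G62210 read 4.19, 4.37 and 5.05 in Col-Luc, all under the limit, and 90.8, 77.9 and 55.9 in rao1-1 (adjusted p = 0.000548). AT4G23680 read 42.3, 22.5 and 24.4 against 544, 468 and 519 (17.9-fold, adjusted p = 0.00565), and AT2G33850 755, 673 and 721 against 47.2, 72.9 and 30.4 (15.2-fold lower, adjusted p = 5.52e-05). The groups did not overlap in any of these, but they were picked as called genes. The share of all probe sets without overlap under antimycin A was not counted. AT3G44970 (9.14-fold, 6.52-fold at the limit) and AT5G22390 (3.75-fold) were higher under antimycin A as well, the latter after 21.4, 32.9 and 24.3 against 115, 112 and 112 under mock. AT5G52070 (5.57-fold, 4.34-fold at the limit) and AT4G33420 (4.3-fold) were lower. Of the antimycin A arrays, 2 of 3 Col-Luc arrays were above the limit for AT3G44970 and 1 of 3 rao1-1 arrays for AT5G52070. AT4G33420 read 39.9, 53.5 and 38.1 against 9.76, 10.7 and 15.7 under mock (at least 2.29-fold, adjusted p = 0.0111), a call lost without rao1-1 replicate 2 (adjusted p = 0.0501). TCP15 was 1.99-fold higher under antimycin A (adjusted p = 0.00197) and UGT88A1 1.62-fold lower (adjusted p = 0.0052).

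For other genes the difference itself differed between treatments. AT5G53710 and AT1G56710, above the limit in Col-Luc mock, were under it on all 3 Col-Luc and all 3 rao1-1 arrays under antimycin A (means of 4.72 and 5.25, and of 4.78 and 4.74), with adjusted p = 3.23e-05 and 2.16e-05 for the difference between treatments. GID1C read 29.8, 29.7 and 33.7 in Col-Luc and 29.9, 29.7 and 20.06 in rao1-1 under antimycin A (difference between treatments -1.40 ± 0.27, adjusted p = 0.0459). AT4G19430 read 70.0, 61.6 and 80.8 against 115, 106 and 81.9 (difference -2.08 ± 0.38, adjusted p = 0.0336). WSD1 (AT5G37300), a wax ester synthase, was not called under mock (146, 110.4 and 120.1 against 205, 153 and 194, adjusted p = 0.324), but read 6.32, 4.17 and 4.63 against 63.2, 45.9 and 63.4 under antimycin A (adjusted p = 1.26e-05), with all 3 Col-Luc antimycin A arrays under the limit.

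**Figure D4:**
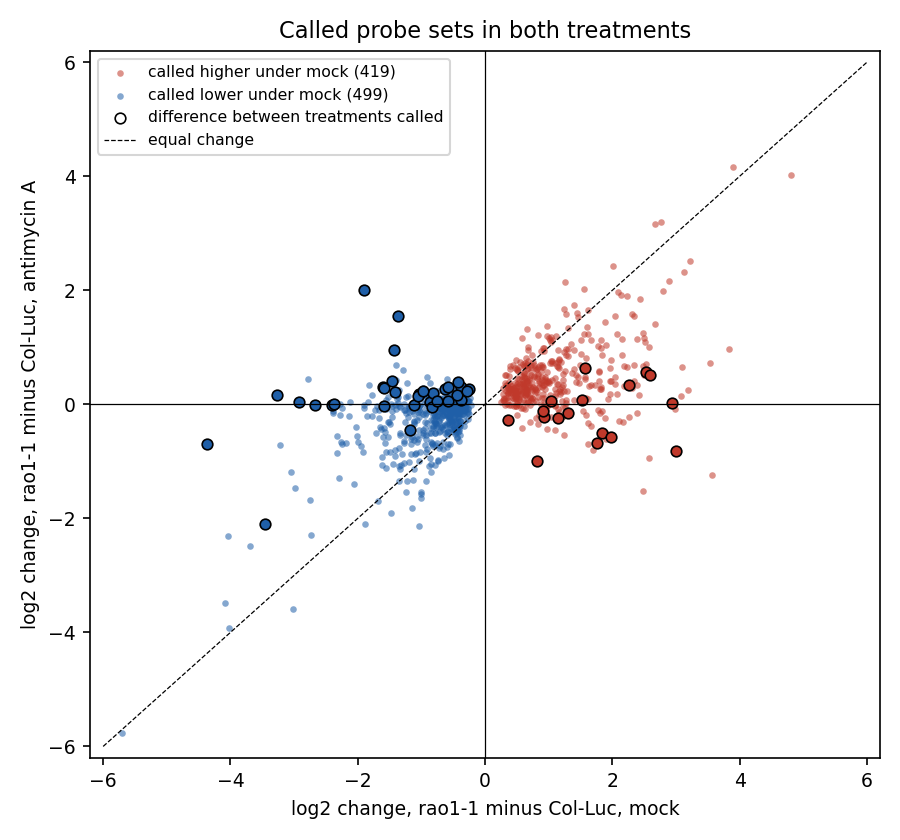
Each point is 1 of the 918 probe sets called under mock, with its log2 change between rao1-1 and Col-Luc under mock on the x axis and under antimycin A on the y axis. Red points were higher and blue points lower under mock, outlined points had a called difference between treatments, the dashed line marks equal change, and 84.5% of the red and 73.7% of the blue points kept their sign.

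The mutant rao1-2 under mock shares the Col-Luc arrays with this comparison, so values are set side by side and no agreement is counted. Against the same Col-Luc arrays, 144 probe sets (0.633%) were higher and 168 (0.739%) lower in rao1-2, 1.37% in all. AT5G62210 read 33.6, 94.2 and 201 in rao1-2, AT4G23680 342, 203 and 355, and CHIL 59.4, 35.7 and 112. AT5G53710 read 5.48, 9.59 and 5.89 and AT1G56710 8.98, 7.25 and 6.58, under the limit as in rao1-1. For these genes the rao1-2 values were on the same side of wild type as those of rao1-1. Compared directly, rao1-1 and rao1-2 differed under mock in 33 probe sets (0.145%), 18 higher (0.0791%) and 15 lower (0.0659%) in rao1-1.

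AT2G33850 read 837, 869 and 1096 in rao1-2, near the wild-type values (rao1-1 against rao1-2 -4.12 ± 0.34, adjusted p = 7.5e-05). AT1G22890 read 2703, 1961 and 2077 in Col-Luc, 591, 786 and 679 in rao1-1 and 1751, 1702 and 1334 in rao1-2 (-1.22 ± 0.17, adjusted p = 0.00657). Its rao1-2 values lay below Col-Luc and above rao1-1. AT3G61840 read 16.1, 20.3 and 26.9 in Col-Luc, 5.44, 5.37 and 4.78 in rao1-1 and 16.5, 40.3 and 20.07 in rao1-2 (adjusted p = 0.00422). AT2G37980 read 25.4, 20.07 and 25.4, 12.3, 10.2 and 9.15, and 20.3, 28.9 and 25 in the same order (adjusted p = 0.0213). All 3 rao1-1 arrays of both were under the limit. Among the higher genes, AT1G27030 read 656, 646 and 758 in Col-Luc, 2150.4, 2147 and 1836 in rao1-1 and 1300.3, 1052 and 911 in rao1-2 (0.92 ± 0.12, adjusted p = 0.00536). AT1G67760 read 26.7, 21.6 and 33.6 in rao1-2 (adjusted p = 0.045), between the other groups as AT1G27030 was. bZIP58 (AT1G13600), a basic leucine-zipper transcription factor, read 7.04, 7.08 and 7.93 in Col-Luc, 30.5, 20.6 and 43.7 in rao1-1 and 16.7, 7.96 and 7.84 in rao1-2 (adjusted p = 0.045). AT3G19470 read 13, 16.5 and 12.2, 23.3, 33.7 and 33.8, and 12, 19.3 and 11.9 in that order (adjusted p = 0.0437). AT4G17470 read 35.6, 18.19 and 26.3 in Col-Luc, 62.4, 124 and 114 in rao1-1 and 17, 8.78 and 5.46 in rao1-2 (adjusted p = 0.00529). Of its Col-Luc mock arrays, 2 of 3 were above the limit, and its call against Col-Luc was lost without Col-Luc replicate 2 or 3 or rao1-1 replicate 2 or 3 (adjusted p up to 0.125). The call of AT3G19470 was lost with the 6 mock arrays alone.

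**Figure D5:**
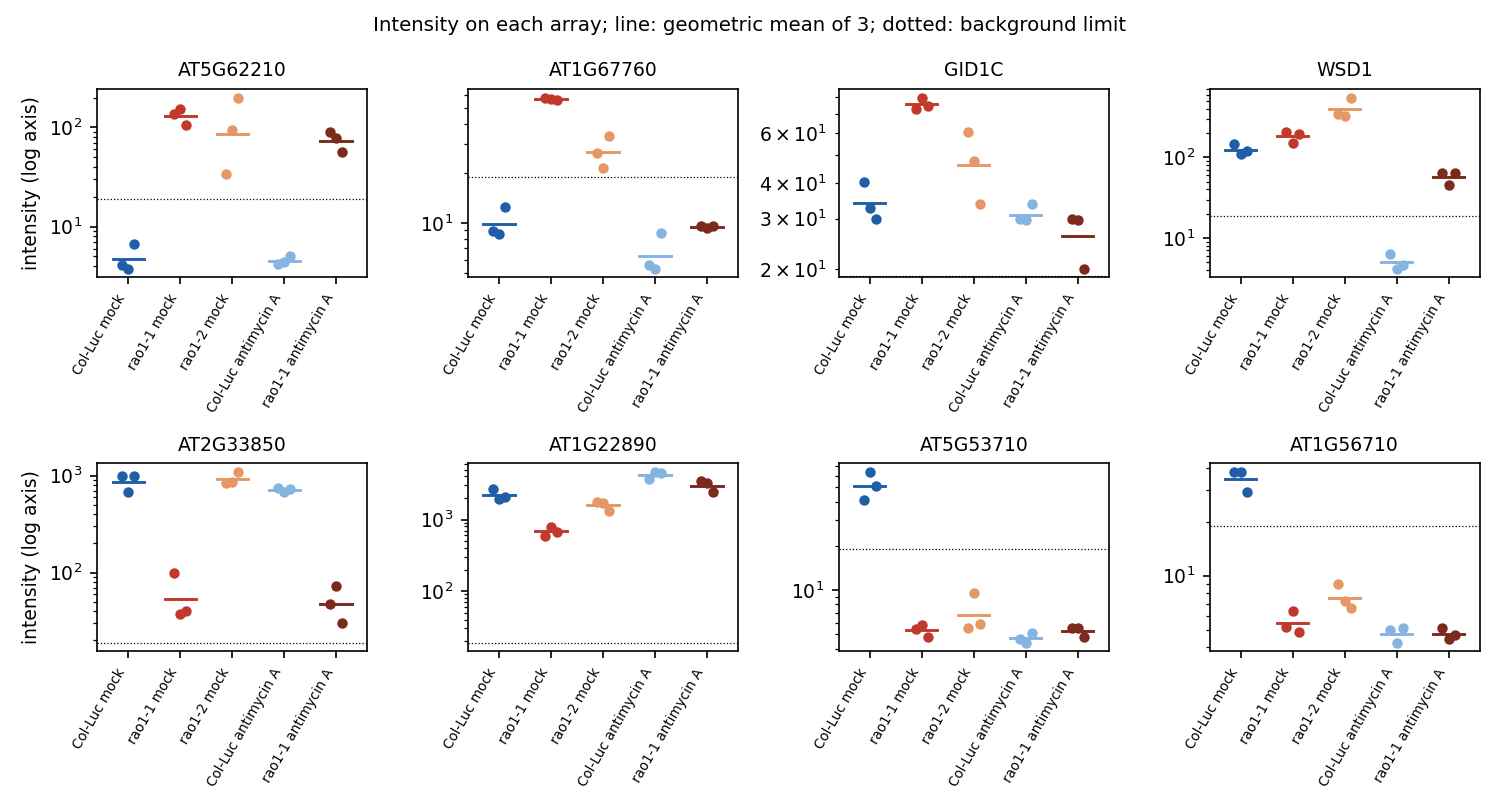
Intensity on log axes of 8 genes on each of 3 arrays of Col-Luc mock, rao1-1 mock, rao1-2 mock, Col-Luc antimycin A and rao1-1 antimycin A, with a line at the geometric mean and a dotted line at the background limit of 18.9. AT2G33850 is low on the 6 rao1-1 arrays and near wild type in rao1-2, while AT5G53710 and AT1G56710 are above the limit on the 3 Col-Luc mock arrays and below it on the others.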

How the data were processed

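Transcripts were measured on 18 one-colour Affymetrix ATH1 arrays, 3 for each of 3 genotypes with 2 treatments, from 400 ng of total RNA each, per the labels' protocols. Per the file headers and values, the authors deposited linear-scale intensity values from 1.61 to 64819.8. The tools RMA and GCRMA appear, with no version, per the submitters' processing notes, while the sources used here do not give the one behind these values. Either makes the arrays' distributions alike, so changes are relative to the bulk of transcripts. No build is named and no coordinates are given. Log2 was taken with no pseudocount, and 22746 of 22810 probe sets were tested, the 64 control probe sets being left out.

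Using limma 3.58.1 (R 4.3.3), group means were estimated for every probe set from the 18 arrays together, with eBayes moderation. P-values were two-sided and adjusted by the Benjamini-Hochberg method over all probe sets tested, with calls at values under 0.05. All such gene-level values come from limma. Levels are single values or means ± SD (n = 3), and changes are rao1-1 minus Col-Luc means of log2 values ± SE. Replicates are numbered in the labels, with nothing on separate cultures. The p-values therefore reflect only how far these samples spread, possibly for technical reasons, and array number limits precision.

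The background limit, 4.24 on the log2 scale, is the least dense point between the modes of all values and was set after the values were seen. A fold against a group with all 3 arrays under it is "at least", with that group's values raised to the limit and the other group's as measured, and no fold is given where both groups lie under it. Per the platform annotation, 13513 probe sets name 1 gene, 503 several and 8730 were unnamed here. Of the first, 13436 matched RefSeq's TAIR10.1 gene table, which gave symbols and gene order, and 77 kept the given name. The 13355 genes named include 147 with several probe sets, represented by the one with the highest mean.

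Genes were named by rule: the 15 higher and 15 lower with the largest change among those called, naming 1 gene, above the limit on at least 1 array of the higher group and with no overlap between groups; the 5 and 5 largest also called under antimycin A, and those also called against rao1-2; and up to 4 called members of each list, or the one with the smallest p. Called genes with a symbol of their own, gene families and the members of lists that were not called were added after the values were seen. The comparison, lists and rules were chosen with earlier results of these data known. Promoter motifs were not analysed here. Lists for energy starvation, phloem, xylem and epidermis had 0 named members. Alternatives were other scalings, an added pseudocount of 16, a filter on dim probe sets, another moderation, the 6 mock arrays alone, a replicate block and leaving out each array.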

Additional observations from a re-analysis of the deposited data

Results flagged for a closer look

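For 7 of the genes named above, the difference between rao1-1 and Col-Luc itself differed between water and antimycin A, by limma's interaction term, given here as the log2 change under antimycin A minus that under mock. It was -2.08 for AT4G19430 (2.59 under mock and 0.51 under antimycin A, adjusted p = 0.0336), -1.95 for AT1G67760 (2.52 and 0.57, adjusted p = 0.00563), -0.95 for AT1G27030 (1.57 and 0.63, adjusted p = 0.0336) and -1.40 for the gibberellin receptor gene GID1C (1.15 and -0.25, adjusted p = 0.0459). It was 3.42 for AT5G53710 (-3.27 and 0.15, adjusted p = 3.23e-05), 2.66 for AT1G56710 (-2.67 and -0.01, adjusted p = 2.16e-05) and 2.97 for the wax ester synthase gene WSD1 (0.55 and 3.52, adjusted p = 0.00363). For WSD1 all 3 Col-Luc antimycin A arrays were under the background limit, so its level there is only a bound. AT5G53710, AT1G56710 and AT1G67760 were under the background limit in both genotypes under antimycin A, so that no difference could have been measured there.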

How the results depend on the processing

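The total of 918 calls became 4480 when arrays were centred on the hybridisation controls, and between 383 and 964 when 1 array was left out (higher 182 to 424, lower 201 to 540). The 419 higher calls became 4136 centred on the hybridisation controls, 244 centred on the poly(A) controls and 241 with the 6 mock arrays alone, which gave 613 calls in all. Under the other settings run the counts stayed within 1.5 times. Deviations of same-numbered Col-Luc and rao1-1 mock arrays correlated at 0.036, -0.23 and -0.34. Those of differently numbered arrays correlated at between -0.37 (Col-Luc 1 with rao1-1 2) and 0.49 (Col-Luc 3 with rao1-1 2). Whether arrays of different groups shared a batch was not tested. With the replicate number as a block there were 1090 calls (476 higher, 614 lower) under mock, 977 under antimycin A, 442 for rao1-2, 32 between the mutants and 109 for the difference between treatments. Of 115 called genes followed, 42 kept their call without any 1 of the 6 arrays, 19 of them among the 30 with the largest change. With the 6 mock arrays alone, 66 of the 115 lost their call. The replicate block ended 7 of the 115 calls, the intensity trend 12 and an added 16 ended 8. The filter on dim probe sets ended 2, but followed genes that it removed were not tested under it. Among all 132 genes followed, called or not, 102 stayed the same under the filter. Among genes named above, the block ended the calls of APTX, REV7 and ATIM, and the intensity trend those of these 3 and scpl48. The filter ended that of scpl48, and an added 16 those of SAL2, YUC2, GID1B, CYTC-2, AT4G12500 and AT4G14090. An added 16 also moved the log2 change of AT5G62210 from 4.81 to 2.82. Of these 115, 0 changed sign under the alternatives in which they were tested. Of those not called, NDC1 turned to 0.006 centred on the hybridisation controls, and OLEO3, at background, to -0.031 centred on the poly(A) controls, -0.0 with quantile normalization and between -0.035 (without rao1-1 mock replicate 2) and 0.045 when 1 array was left out. The cause of these shifts was not tested. Signal under the background limit kept 26 lower and 6 higher calls from having a fold.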

Other observations

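Called genes that neighbour each other were counted along the reference gene order. Among 5817 adjacent pairs with both genes named, 9 were called in the same direction, 2 higher and 7 lower, and 7 in opposite directions. Of the 13355 named genes, 197 were higher and 273 lower. Whether neighbours were called alike more often than other pairs of genes was not tested. The pairs named here are from those called in the same direction. AT1G64360, AT1G64370 and AT1G64380 formed a run of 3 lower genes (-2.30, -2.06 and -1.01 on the log2 scale). AT4G28140 and AT4G28150 were lower together (-2.99 and -1.56), as were AT3G17630 and AT3G17640 (-0.59 and -2.39), while AT5G52750 and AT5G52760 were higher together (1.39 and 2.49), as were AT1G70270 and AT1G70280 (2.67 and 0.78).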
